A study of Saccharomyces cerevisiae with 3 samples.

Results

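Glucose derepression is the switch that lets budding yeast use other carbon sources. Described here are 10 genes listed under its kinase and its transcription factors, out of 5543 genes named on the arrays. They were taken by gene symbol, each with 2 spots on the array. The list was drawn up with results of this same comparison known. YGR067C in particular was taken up because it was among the 13 of 3579 genes (0.363%) that passed the test across all genes. The ratios of the 10 genes are therefore given as a description, without a test. All 10 had a value on at least 2 arrays, the minimum set for the list, and 8 had one on all 3. SNF1 and CAT8 were at that minimum, and no gene of the list fell outside it.

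In textbook yeast biology, the kinase Snf1 becomes active when glucose is scarce. It then takes the repressor Mig1 off its target genes and lets the activators Cat8, Sip4, Rds2 and Adr1 switch on genes for ethanol, acetate, lactate, glycerol and fatty acid use, while Hap4 activates genes of respiration. Cat8, Sip4 and Rds2 belong to the zinc cluster family, as does War1, the factor altered in this study, which is known for inducing the transporter gene PDR12 under weak acid stress.

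Each of the 3 two-colour arrays set a culture of a W303 strain with War1K762R, named for an exchange of lysine for arginine, against a culture of a W303 strain with War1. Both forms were expressed from the galactose-inducible GAL1 promoter, so both cultures shared the growth in rich medium with 2% raffinose at 30 °C and the 1 h in 2% galactose before harvest. No glucose and no weak acid is named in the labels, and the sources used here do not say whether the strains kept a chromosomal WAR1. Going by the source names of the channels, the mutant's cDNA carried Cy5 on the first and second replicates and Cy3 on the third, the dye swap. The design text calls the arrays biological repeats.

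All values are log2 ratios of War1K762R over War1, centred on the median of each array, so a change in total RNA would not be seen. The direction is likely but not certain, since it takes the scanner's ratio to be red over green, on which the sources used here are silent. With the opposite ratio every sign below turns. Highest and lowest then change places, ranks count from the other end, and each share of genes with a lower mean becomes the share with a higher mean. Values were present on 12277, 12112 and 7367 of 13056 spots in replicates 1, 2 and 3. The median gene had an SD of 0.20 between the 3 arrays and a mean ratio of 0.05, so a small positive mean is the ordinary case. The 3579 genes measured on every array had median ratios of 0.07, 0.06 and 0.01.

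Among the 10 regulators, YGR067C stood apart. It encodes a protein of unknown function with a zinc finger motif similar to that of Adr1. Here it is called a regulator only as a member of the list. Its log2 ratios were 0.60, 0.73 and 0.75 in replicates 1, 2 and 3, a mean of 0.69 ± 0.08 (SD, n = 3), or 1.61-fold higher with War1K762R. Both spots were positive on every array, between 0.55 and 0.82, and the dye-swapped array gave the highest value. The other 9 regulators had means from −0.14 to 0.29. The lowest array of YGR067C, at 0.60, lay above the highest array of every other regulator, of which the highest was ADR1 at 0.43 in replicate 1. By its mean YGR067C ranked 33 of the 3579 genes from the top, or as many from the bottom if the ratio ran the other way. Its SD was smaller than that of all but 12.4% of them. Since YGR067C was taken up for passing the test on these ratios, its rank and small SD are no further result. The direct neighbours on the chromosome, in the gene order of the R64 assembly, had no value on replicate 3. GID10 (YGR066C), which encodes a substrate receptor of the ubiquitin ligase that degrades gluconeogenic enzymes, had −0.02 and −0.06 in replicates 1 and 2. ART5 (YGR068C), of the arrestin-related adaptor family, had −0.45 and 0.09.

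**Figure D1:**
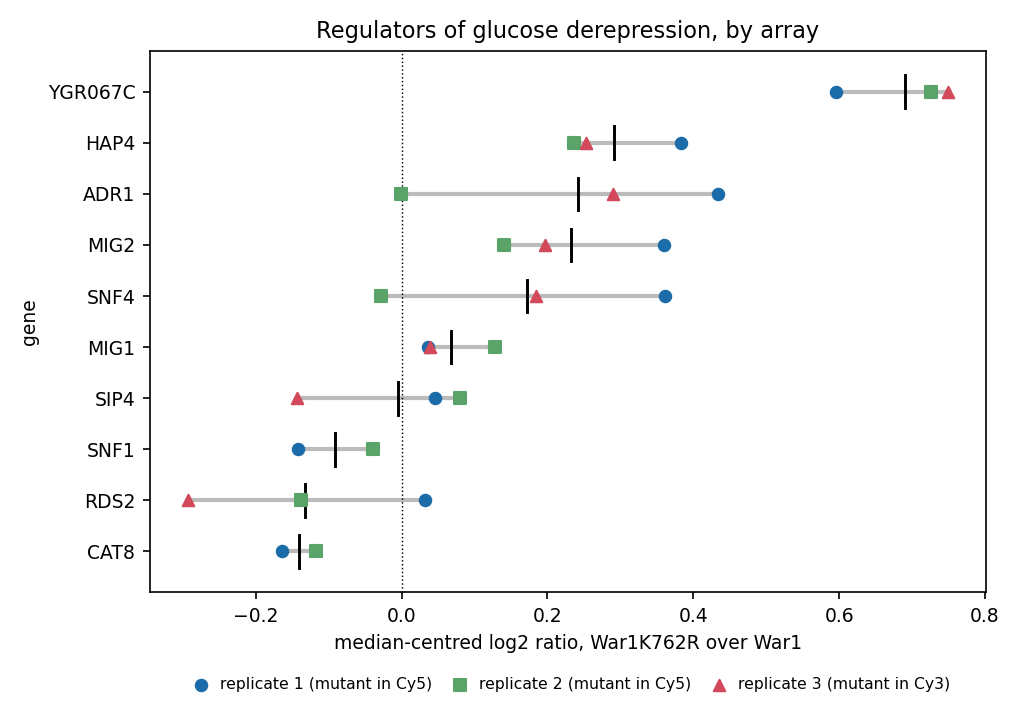
Median-centred log2 ratio of War1K762R over War1 (x axis) for the 10 regulator genes (y axis), ordered by mean. Each symbol is 1 array, the grey line spans the arrays and the black bar is the mean. YGR067C lies between 0.60 and 0.75 and apart from the other 9 genes, whose ranges overlap from each gene to the next.

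The genes of the kinase itself had ratios close to those of the median gene. SNF1 (YDR477W), the catalytic subunit, had −0.14 and −0.04 in replicates 1 and 2 and no value on replicate 3. SNF4 (YGL115W), the subunit that binds adenine nucleotides, had 0.36, −0.03 and 0.18 in replicates 1, 2 and 3, a mean of 0.17 ± 0.19 (SD, n = 3). Its arrays did not share a sign, and 72.7% of the genes tested had a lower mean.

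MIG1 (YGL035C), the zinc finger repressor that Snf1 phosphorylates, had one of the steadiest ratios on the arrays. It had 0.04, 0.13 and 0.04 in replicates 1, 2 and 3 (mean 0.07 ± 0.05, SD, n = 3), and 5.31% of the genes tested had a smaller SD. MIG2 (YGL209W), a related repressor of partly shared targets, had 0.36, 0.14 and 0.20 (mean 0.23 ± 0.11). MIG2 was positive on every array and on all 6 spot readings, from 0.05 to 0.38.

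Of the activators, HAP4 (YKL109W), the activating subunit of the HAP complex, had the highest mean after YGR067C. Its ratios were 0.38, 0.24 and 0.25 in replicates 1, 2 and 3 (mean 0.29 ± 0.08, SD, n = 3), or 1.22-fold. All 3 arrays were positive, and 87.3% of the genes tested had a lower mean. ADR1 (YDR216W), the activator of ADH2 and of fatty acid oxidation genes, had 0.43, −0.001 and 0.29 (mean 0.24 ± 0.22). Replicate 2 was thus at 0 for ADR1, and on replicate 3 its spots read 0.50 and 0.08.

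The zinc cluster activators of gluconeogenesis had means from −0.14 to −0.01, while SIP4 and RDS2 had arrays of both signs. CAT8 (YMR280C) had −0.16 and −0.12 in replicates 1 and 2 and no value on replicate 3. Its spots read 0.25 and −0.58 on replicate 1, so that the sign of CAT8 there depends on the spot. SIP4 (YJL089W), which Cat8 activates, had 0.05, 0.08 and −0.14 in replicates 1, 2 and 3 (mean −0.01 ± 0.12, SD, n = 3), the last from 1 spot. RDS2 (YPL133C), an activator of gluconeogenic genes, had 0.03, −0.14 and −0.29 (mean −0.13 ± 0.16). The dye-swapped array was the lowest for both SIP4 and RDS2, and 15.3% of the genes tested had a lower mean than RDS2.

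**Figure D2:**
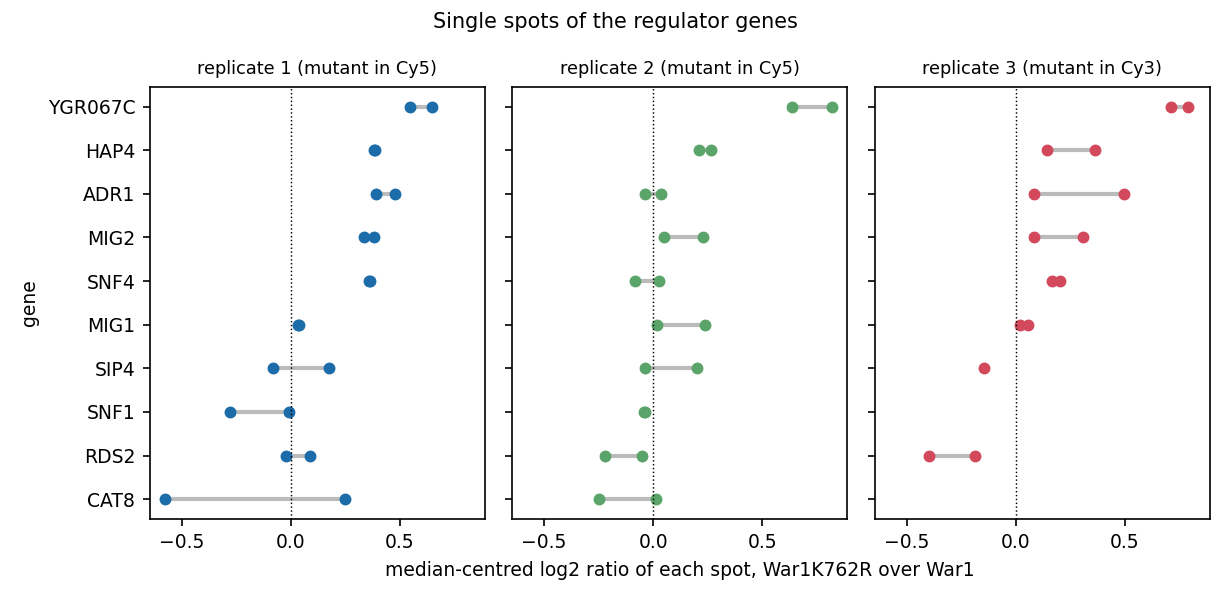
Median-centred log2 ratio of single spots (x axis) for the 10 regulator genes (y axis) on each array, with War1K762R over War1. A grey line joins the spots of a gene. Spots of CAT8 on replicate 1 are 0.82 apart, the widest gap, while those of YGR067C are at most 0.18 apart.

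Ordered by mean, the regulators ran YGR067C, HAP4, ADR1, MIG2, SNF4, MIG1, SIP4, SNF1, RDS2 and CAT8. The step from YGR067C to HAP4 was 0.40, against a larger SD of 0.08 in that pair. It is no further result either, as YGR067C was chosen on these ratios. Each later step was smaller than the larger SD of its pair, and the array ranges overlapped at each of them. Of the 8 genes with 3 arrays, 4 were positive on every array (YGR067C, HAP4, MIG2 and MIG1) and 0 negative on every array. The share of all genes tested was 24.7% positive and 13.5% negative on every array. Without YGR067C the median mean of the other 7 was 0.17, with array medians of 0.36, 0.08 and 0.18 in replicates 1, 2 and 3. The median of these 7 was thus highest on replicate 1, although MIG1 and SIP4 had higher ratios on replicate 2 than there. The median gap between the spots of one gene was 0.09, 0.17 and 0.21 for the regulators, against 0.09, 0.12 and 0.12 for all genes with 2 spots. Between spots of one gene, the regulators thus differed at least as much as other genes did.

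By the difference of their 3 array ratios from those of YGR067C, the most like among 3578 other genes, in order of increasing difference, were YJR028W, CLG1, EMI2, ROX1 and ICT1. Their root mean square differences from it over the 3 arrays were 0.09, 0.11, 0.13, 0.13 and 0.14 on the log2 scale. EMI2 (YDR516C), a homologue of the glucose kinase gene GLK1 and on the list of Mig1-repressed genes below, had 0.38, 0.71 and 0.78 in replicates 1, 2 and 3. ROX1 (YPR065W), the repressor of hypoxic genes, had 0.68, 0.60 and 0.58. CLG1 (YGL215W), a cyclin-like protein gene, had 0.47, 0.60 and 0.69, and ICT1 (YLR099C), a lipid acyltransferase gene, had 0.71, 0.65 and 0.54. YJR028W, a retrotransposon gene with near-identical copies, had 0.50, 0.72 and 0.62. Since likeness to YGR067C chose them, their positive ratios are no further result.

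The partners of the regulators were read from lists chosen by function, with earlier results of these data known. Of 16 other genes of the Snf1 complex, its kinases and phosphatase and glucose sensing, 10 had a value on all 3 arrays. Over all genes 0 of these 10 passed (limma), and 2 had an unadjusted p under 0.05, both higher, where 11.1% of all genes tested did. These were SIP2 (YGL208W), which encodes a β subunit that tethers Snf1, and HXK2 (YGL253W), the hexokinase that also serves in glucose repression. SIP2 had 0.66, 0.31 and 0.45 in replicates 1, 2 and 3 (mean 0.47 ± 0.18, SD, n = 3, limma adjusted p = 0.134). HXK2 had 0.42, 0.47 and 0.53 (mean 0.47 ± 0.05, limma adjusted p = 0.123). Both were positive on all 3 arrays, and the 3 arrays of HXK2 lay close together. Of the other β subunit genes, GAL83 (YER027C) had 0.16, 0.16 and −0.43, its sign turned on the dye-swapped array. Its mean of −0.04 ± 0.34 (SD, n = 3) thus joins opposite signs. SIP1 (YDR422C) had −0.04 and −0.17 in replicates 1 and 2.

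For the upstream kinases of Snf1 the ratios were near 0 or negative. SAK1 (YER129W) had −0.03, −0.01 and 0.04 in replicates 1, 2 and 3. TOS3 (YGL179C) had −0.13 and −0.14, and ELM1 (YKL048C) −0.34 and −0.29, in replicates 1 and 2. The lowest mean of this list on 3 arrays, that of STD1 (YOR047C), a regulator of glucose transporter gene expression, came with the widest spread. Its ratios were −0.84, −0.20 and 0.46, so its arrays held both signs.

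Of 5 other repressor and co-repressor genes, 2 had a value on all 3 arrays and 0 passed (limma, 0 at an unadjusted p under 0.05). CYC8 (YBR112C) and TUP1 (YCR084C), which encode the co-repressor that Mig1 recruits, had means of 0.09 ± 0.16 and 0.03 ± 0.35 (SD, n = 3). TUP1 was negative on replicates 1 and 2 (−0.16 and −0.19) and positive on replicate 3 (0.43). Among the genes that lacked replicate 3, NRG2 (YBR066C), a repressor that binds Snf1, had −0.62 and −0.52, a gene named after its values were seen. Of the partners of HAP4 in the CCAAT-binding complex, HAP2 (YGL237C) had −0.02, −0.25 and −0.02 in replicates 1, 2 and 3 (mean −0.10 ± 0.13, limma adjusted p = 0.753). HAP3 (YBL021C) had −0.43 and −0.71, and HAP5 (YOR358W) −0.13 and −0.13, in replicates 1 and 2. HAP4 was thus the one gene of its complex with positive ratios.

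**Figure D3:**
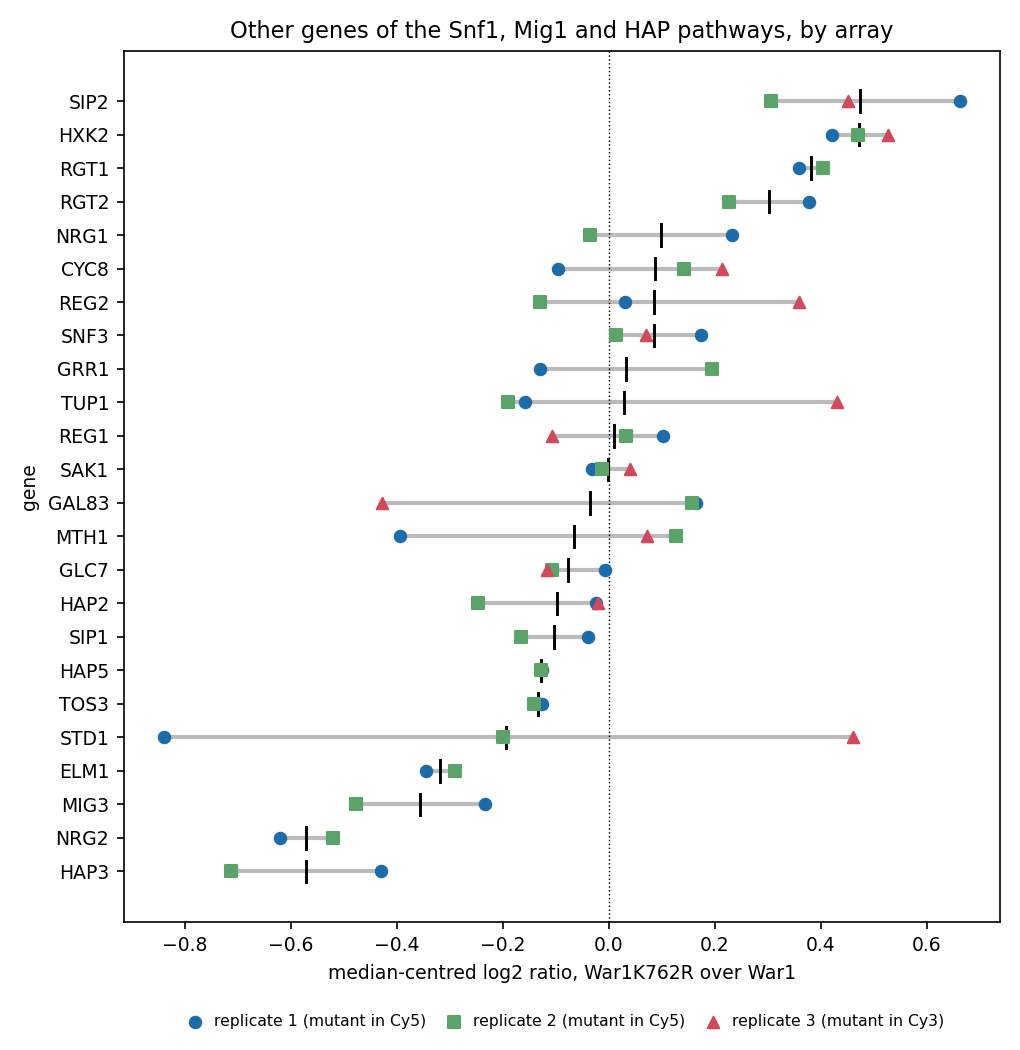
Median-centred log2 ratio of War1K762R over War1 (x axis) for the 24 other genes of the Snf1, Mig1 and HAP lists (y axis), ordered by mean. Symbols are arrays, grey lines span them and black bars are means. SIP2 and HXK2 are highest, HAP3 and NRG2 lowest, and 11 of the 24 genes have no value on replicate 3.

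Target genes of the regulators had ratios on both sides of 0. Of 76 target genes on 4 lists, 70 had a value on all 3 arrays and 2 of these rose over all genes, where 0.335% of all genes tested did. Both are targets of Adr1. As the lists were chosen with earlier results of these data known, the count of 2 is no independent comparison with that share. The same limit holds for the counts and medians of each target list below. CIT3 (YPR001W), the mitochondrial citrate and methylcitrate synthase gene, had 1.25, 1.22 and 0.55 in replicates 1, 2 and 3 (mean 1.01 ± 0.40, SD, n = 3, limma adjusted p = 0.0375). ALD4 (YOR374W), the mitochondrial aldehyde dehydrogenase gene, had 0.89, 1.13 and 0.58 (mean 0.86 ± 0.28, limma adjusted p = 0.0378). Both calls ended without replicate 1 (limma adjusted p = 0.176 for both, means 0.89 and 0.85). They ended as well with a dye term (limma adjusted p = 0.0552 and 0.0963) or when the arrays were centred on the tested genes alone (0.0733 and 0.0782). The call of ALD4 also ended when single spots were fitted, even at its best spot (limma adjusted p = 0.0509). The median of the 15 Adr1 targets on 3 arrays was 0.28, against 0.05 for all genes tested, with array medians of 0.43, 0.17 and 0.07. Of these 15 targets, 7 kept a ratio above 0 in each replicate and 2 kept one below 0. The same held for 24.7% and 13.5% of all genes tested. At an unadjusted p under 0.05 (limma), 4 of the 15 were higher and 0 lower, against 11.1% and 2.68% of all genes tested. As the list was chosen with earlier results known, these counts are no independent comparison either. The lowest mean of the list was that of ETR1 (YBR026C), of mitochondrial fatty acid synthesis, at −0.19 ± 0.12. ADH2 (YMR303C), the alcohol dehydrogenase gene for which Adr1 is named, had 0.21, 0.26 and −0.05, and was named after its values were seen.

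Several Adr1 targets of fatty acid oxidation had no value on replicate 3. POX1 (YGL205W), the peroxisomal acyl-CoA oxidase gene, had 1.52 and 1.50 in replicates 1 and 2. In a fit to the 5479 genes with at least 2 arrays, where missing arrays were dropped, it was called higher (limma adjusted p = 0.000444). Both of its arrays carried the mutant in Cy5, so strain and dye cannot be told apart for POX1. That fit called 1.22% of its genes higher. Over all its genes it called 67 higher and 50 lower (limma, 500 and 425 at an unadjusted p under 0.05). Of the 98 listed genes it called 8 higher and 0 lower (limma, 19 and 5 at an unadjusted p under 0.05). Besides POX1, CIT3 and ALD4 these were JEN1, GAL3, ICL2, EMI2 and ATP1, which did not pass on the 3579 genes. In the wider fit their limma adjusted p values were 0.0155, 0.017, 0.0243, 0.0332 and 0.0472. As the lists were chosen with earlier results known, the count of 8 is no independent comparison with the 1.22%. ICL2 (YPR006C), the methylisocitrate lyase gene and an Adr1 target, had 0.76, 1.07 and 0.37 in replicates 1, 2 and 3. FOX2 and POT1, which encode the enzymes after that of POX1 in fatty acid oxidation, had 0.58 and −0.67, and 0.01 and −0.08, in replicates 1 and 2. POX1, FOX2, POT1 and ICL2 were named after their values were seen.

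The Cat8 and Sip4 targets of gluconeogenesis and the glyoxylate cycle had 12 genes on 3 arrays, of which 0 passed (limma, 2 higher and 1 lower at an unadjusted p under 0.05, against 11.1% and 2.68% of all genes tested). Their median was 0.08, with array medians of 0.23, −0.22 and −0.11. JEN1 (YKL217W), the lactate permease gene, had the highest mean at 0.83 ± 0.43 (SD, n = 3, limma adjusted p = 0.0648, and 0.0155 in the fit to genes on at least 2 arrays), followed by CAT2 (YML042W), carnitine acetyltransferase, at 0.36 ± 0.44 (adjusted p = 0.362). JEN1 was positive on all 3 arrays, with 0.96, 1.17 and 0.35, while CAT2 had 0.71, −0.13 and 0.51. At the low end, IDP2 (YLR174W), cytosolic isocitrate dehydrogenase, had 0.09, −0.73 and −0.36, and ICL1 (YER065C), isocitrate lyase of the glyoxylate cycle, had −0.08, −0.47 and −0.37. ICL1 was negative on all 3 arrays (mean −0.31 ± 0.21, limma adjusted p = 0.321). FBP1 and PCK1, the key genes of gluconeogenesis and also named after their values were seen, were positive on replicate 1 (0.23 and 0.31) and negative on replicates 2 (−0.80 and −0.31) and 3 (−0.21 and −0.19).

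Among 13 genes that Mig1 or Mig2 represses in glucose, 12 had a value on all 3 arrays and 0 passed (limma). Of these 12, 5 were higher and 1 lower at an unadjusted p under 0.05, against 11.1% and 2.68% of all genes tested. Their median was 0.25, with array medians of 0.24, 0.37 and 0.21. As this list too was chosen with earlier results known, its counts and median are no independent comparison with all genes. Besides JEN1 the highest mean was that of GAL3 (YDR009W), the galactose sensor gene, at 0.71 ± 0.23 (SD, n = 3, limma adjusted p = 0.0575), and ICL1 was the lowest. The galactose genes of this list respond to the inducer that both strains received, and their part in the median was not tested. SUC2 (YIL162W), the invertase gene by which Snf1 was found and likewise named after its values were seen, had 0.08, 0.45 and 0.21 (mean 0.25 ± 0.19, limma adjusted p = 0.414).

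Hap4 targets in respiration gave 36 genes on 3 arrays, of which 0 passed (limma, 3 higher and 0 lower at an unadjusted p under 0.05, against 11.1% and 2.68% of all genes tested). Their median of 0.04 was near that of all genes tested. Their array medians were 0.30, 0.01 and −0.13 in replicates 1, 2 and 3, so the list lay on opposite sides of 0 on replicates 1 and 3. ATP1 (YBL099W), an ATP synthase subunit gene, was highest at 0.54 ± 0.16 (limma adjusted p = 0.108), before KGD1 (YIL125W), of α-ketoglutarate dehydrogenase, at 0.43 ± 0.27 (adjusted p = 0.221). SDH4 (YDR178W), of succinate dehydrogenase, was lowest at −0.27 ± 0.11 (adjusted p = 0.363). HAP4 was highest on replicate 1, as the list median was, but had all 3 of its own arrays positive. Of the 36 targets, 8 were positive and 4 negative on all 3 arrays, against 24.7% and 13.5% of all genes tested.

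**Figure D4:**
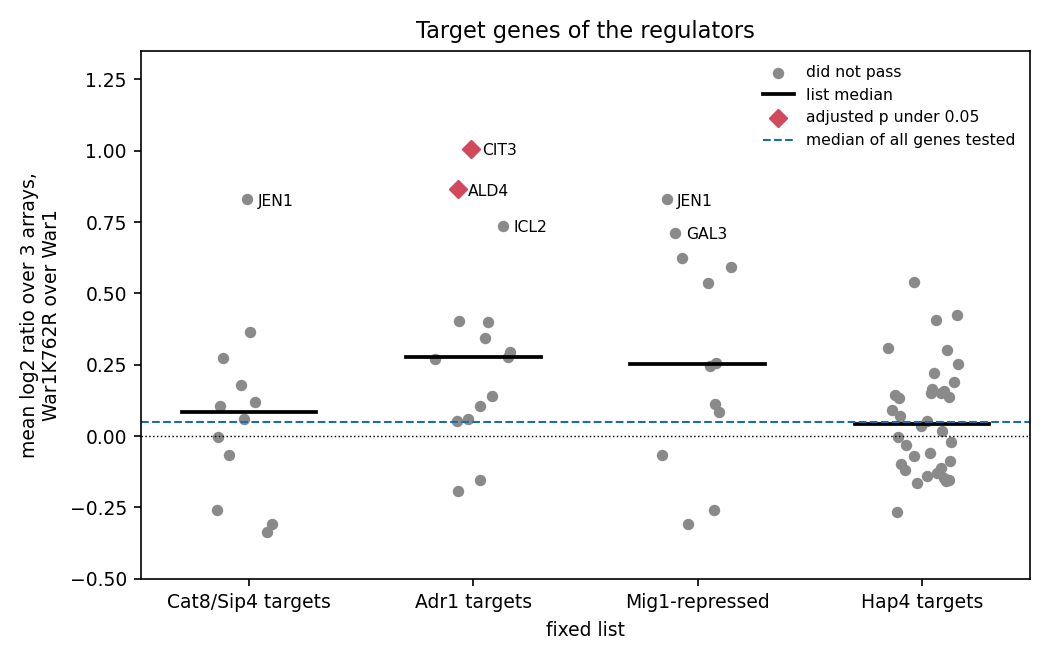
Mean log2 ratio over 3 arrays, War1K762R over War1 (y axis), of each target gene on 4 fixed lists (x axis, points spread sideways for sight). Black bars are list medians, from 0.04 to 0.28, the dashed line is the median of all genes tested, and diamonds are the 2 genes past the test, CIT3 and ALD4.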

How the data were processed

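The deposited table holds a log2 ratio for each spot on each array. Its scanner, ratio formula, spot filter and normalization, and the genome build, are not named in the sources used here. RNA came from hot phenol extraction, and 20 µg per sample was labelled with Cy3 or Cy5, per the labels' protocols. For replicates 1 and 2 the treatment text of the Cy3 channel names the mutant too, and the source names were followed instead. Turned back to linear ratios, deposited values between −0.5 and 0.5 had 3 decimals, within rounding of the last decimal, for 100% in replicates 1 and 2. In replicate 3 this held for 9.95%, and for 100% with the sign turned, so that column was taken as inverted before deposit and used as it stood.

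Each array was centred on its spot median, spots of a gene were averaged, and the mean ratio of the 3579 genes on all 3 arrays was tested against 0 with limma 3.58.1 (lmFit, eBayes, two-sided, Benjamini-Hochberg, threshold 0.05) in R 4.3.3. The fit was tested on simulated noise with known shifts. That simulation held no dye effect and no missing values, so it cannot show how these affect the calls. Gene symbols come from the platform annotation, with 1910 spots unnamed and 0 with several symbols. By gene identifier 5538 of 5543 genes were found in the R64 gene table. The members and the 7 gene lists were chosen with earlier results of these data known. Named were all members, list genes past the threshold, the 2 highest and the lowest mean per list, subunits and upstream kinases of Snf1, the HAP complex, the 5 genes most like YGR067C and its neighbours. The number of arrays limits the precision. Alternatives were leaving out each replicate, a dye term, other centring, at least 2 arrays, single spots, array weights and replicate 3 turned once more. For single spots each spot with a value on all 3 arrays was fitted alone. A gene was then called by its spot with the lowest adjusted p.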

Additional observations from a re-analysis of the deposited data

How the results depend on the processing

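YGR067C kept a mean between 0.65 and 0.74 in all alternatives except with replicate 3 turned once more, where it was 0.19. The call by which it was chosen is marginal, with a limma adjusted p of 0.0461. It ended without replicate 1 (0.176), without replicate 3 (0.0573, and 0.116 on the genes of all 3 arrays), with a dye term (0.118), with centring on the genes tested (0.104), with no centring (0.0716), on single spots (0.0589) and after turning replicate 3 once more (0.922). It held without replicate 2 (0.0404), for genes on at least 2 arrays (0.0145) and with array weights (0.0369). Genes higher with War1K762R numbered 12, and between 1 and 46 when a replicate was left out. A dye term gave 2, centring on the genes tested 3, no centring 25, genes on at least 2 arrays 67, single spots 4, array weights 24 and turning replicate 3 once more 0 (limma, 96 at an unadjusted p under 0.05). Genes lower numbered 1, between 1 and 34 when a replicate was left out, 50 for genes on at least 2 arrays and 0 after turning replicate 3 once more (limma, 49 unadjusted). Genes of the pathway lists called higher numbered 2, and between 0 and 6 when a replicate was left out (limma, 11 unadjusted at the count of 0, without replicate 1). A dye term gave 0 (limma, 12 unadjusted), as did centring on the genes tested (14 unadjusted) and turning replicate 3 once more (1 unadjusted). No centring gave 4, genes on at least 2 arrays 8, single spots 1 and array weights 5. Without replicate 3 on the genes of all 3 arrays, chosen after seeing the data, 15 genes were higher and 3 of the lists. Causes were not tested beyond the construction of these settings, of which those with fewer arrays or more genes change what is tested. With no intensities used here, signal over background is unknown.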

Other observations

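Missing values on replicate 3 were unevenly spread over the genes described. Of all 5543 genes, 35.4% had no value there. Of the 24 regulator genes other than the 10 described in detail, 45.8% had none, among them ELM1, TOS3, HAP3, HAP5, MIG3, NRG1, NRG2, RGT1 and RGT2. Of the 10 described in detail 20% had none, and of the 76 target genes 7.89%. The glucose receptor gene RGT2 (YDL138W) and the repressor gene RGT1 (YKL038W), which acts on hexose transporter genes, had 0.38 and 0.23, and 0.36 and 0.40, in replicates 1 and 2. MIG3 (YER028C), of the Mig1 family, had −0.23 and −0.48. These genes were named after their values were seen and have no reading in the other dye orientation.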
